A study of Drosophila melanogaster with 2 samples.

Results

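The mitochondrial ribosomal protein genes of Drosophila melanogaster were examined as targets of CG34367, a homeodomain transcription factor. Members were all protein-coding genes of the dm6 annotation whose symbol starts with mRpL or mRpS, without use of any measured value. This gave 73 genes of 13945, of which 47 encode proteins of the large subunit and 26 proteins of the small subunit. Binding was mapped by ChIP-seq in whole pupae aged 24 hours, of unrecorded sex, from a transgenic line that stably expresses CG34367 fused at its C-terminus to GFP. All libraries came from this 1 group, with 2 biological replicates, and DNA was recovered with an antibody against GFP. The labels give neither the sequences that drive the transgene nor the number of animals per library, and whole animals mix all cell types.

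The mitochondrial ribosome translates the few proteins encoded in mitochondrial DNA, which are core subunits of the respiratory chain and of ATP synthase. Its RNAs are made inside the organelle, but its proteins are encoded in the nucleus, translated in the cytoplasm and imported. Some of these proteins descend from those of bacterial ribosomes, and others were added in mitochondria. Many of their genes are compact and start close to a neighbouring gene that is transcribed in the opposite direction.

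A promoter summit was a peak summit within 500 bp of an annotated transcription start site (TSS). The joint list holds 6270 peaks, a number the authors set with the irreproducible discovery rate. These equal the 6270 strongest peaks of the list from both libraries pooled. Of them, 5993 overlapped a peak in both full replicate lists. The joint list placed a promoter summit at 18 of the 73 genes. That is 24.7% (95% exact binomial interval 15.3 to 36.1%), against 17.4% of all protein-coding genes. Among the strongest 6270 peaks of each library, 22 members were reached in replicate 1 (30.1%, background 18.3%) and 17 in replicate 2 (23.3%, background 17.1%). The mean over libraries was 26.7% ± 4.84 (SD, n = 2). The background lay inside the interval of the joint list and of replicate 2 (14.2 to 34.6%), and just below that of replicate 1 (19.9 to 42.0%). With 1 group no test between conditions exists. Intervals cover counting error only and treat genes as independent, and the depth of sequencing is unknown.

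Promoters are shown as 121 bases centred on the joint summit, at position 61, read along the mRp gene. The 5 chosen have the highest joint signal among member summits that lie outside annotated exons and are shared with a gene on the other strand. mRpL23, whose summit lies in an exon, and mRpL41, whose summit is not shared, are therefore not shown. Capitals mark, on either strand, TAATTA and TAATTG, cores bound by many homeodomain proteins, and the AT-rich words ATATTA and AAAATA. Sequence is from the RefSeq assembly of dm6. None overlaps an annotated exon.
mRpS23 (chr2L:13835399-13835519, minus strand): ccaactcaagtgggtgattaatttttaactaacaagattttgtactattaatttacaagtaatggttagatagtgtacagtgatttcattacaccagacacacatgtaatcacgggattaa
mRpS10 (chr3R:15229463-15229583, plus strand): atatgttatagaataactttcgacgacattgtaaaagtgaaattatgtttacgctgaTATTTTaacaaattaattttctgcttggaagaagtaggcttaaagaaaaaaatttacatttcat
mRpL24 (chr2L:4945418-4945538, minus strand): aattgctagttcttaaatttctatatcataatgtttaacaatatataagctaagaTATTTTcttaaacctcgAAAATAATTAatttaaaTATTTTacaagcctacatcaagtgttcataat
mRpL20 (chr3L:13018068-13018188, minus strand): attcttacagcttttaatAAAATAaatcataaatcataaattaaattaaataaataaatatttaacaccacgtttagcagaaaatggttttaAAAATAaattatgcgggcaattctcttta
mRpL2 (chr3L:11120469-11120589, plus strand): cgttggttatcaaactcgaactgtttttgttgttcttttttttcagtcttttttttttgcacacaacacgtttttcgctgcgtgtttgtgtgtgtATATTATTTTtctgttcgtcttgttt

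These stretches are rich in A and T. GC content over the printed bases was 31.4% at mRpS23, 24.8% at mRpS10, 20.7% at mRpL24, 19.8% at mRpL20 and 33.1% at mRpL2. At mRpL24, 22 of the bases fall in marked words, and at mRpS23 none do.

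Signal spread widely among the 18 member peaks. The deposited signal value is the authors' score per peak, with no stated scaling, and it ran from 147 to 2943 with a median of 301. The median over all 2063 joint promoter peaks was 256. Of the members, 10 lay above that median, so the middle of the set resembled that of promoter peaks at large. A few member peaks ranked near the top of the joint list. Of the 20 strongest joint peaks, 11 were promoter peaks and 3 were those of members, where members held 18 of all 2063 promoter peaks. The 3 were at mRpS23, mRpL41 and mRpS10. Summits at mRpS23 and mRpS10 lay nearer to a TSS of a neighbouring gene. Members held 4 of the 100 strongest and 5 of the 300 strongest, for which the number of promoter peaks is not given here. No test was made of these counts.

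Small subunit genes are described first. mRpS23, which encodes a protein without a bacterial counterpart in the family's numbering, carried the strongest member peak. On 2L its peak ran from 13835301 to 13835624, at rank 8 of the joint list with signal 2943. Signal was 1691 in replicate 1 (rank 9) and 1247 in replicate 2 (rank 16). mRpS10, whose bacterial homolog lies in the head of the subunit, had a peak on 3R from 15229360 to 15229693 at joint rank 13, with signal 1555 in replicate 1 and 1261 in replicate 2. It ranked 15 in each library. Both peaks were thus near the top of each list.

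Signal at the other small subunit genes was much lower. mRpS2, which encodes a homolog of a conserved bacterial protein, had 235 in replicate 1 and 231 in replicate 2 (joint rank 1387). mRpS6, whose homolog sits on the platform of the subunit, had 137 and 193 (joint rank 2279). mRpS2 thus lay well above the middle of the joint list, and mRpS6 less so. mRpS26 had 115 and 125 (joint rank 3295), and mRpS7, whose homolog lies in the head, had 116 and 106 (joint rank 3562). mRpS21 gave 130 in replicate 1 and 66.5 in replicate 2, where it ranked 6910. mRpS24 gave 61.7 in replicate 1, where it ranked 6922, and 91.0 in replicate 2. Each of the last pair therefore fell outside the 6270 strongest peaks of 1 library.

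Among large subunit genes the strongest was mRpL41, which encodes a protein without a bacterial counterpart in the numbering. Its peak, on 2R from 15217588 to 15217925, had joint rank 11, with signal 1557 in replicate 1 (rank 14) and 1301 in replicate 2 (rank 13). mRpL23 and mRpL24 encode homologs of bacterial proteins placed around the exit of the peptide tunnel. The mRpL23 peak (3L, 2373439 to 2373770) had joint rank 64, with 1019 in replicate 1 and 747 in replicate 2. The mRpL24 peak (2L, 4945337 to 4945622) had joint rank 186, with 620 and 585. Values in the libraries were close at both genes.

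The next large subunit peaks differed more between libraries. mRpL20, a homolog of an RNA-binding protein of the bacterial subunit, had 319 in replicate 1 (rank 765) and 551 in replicate 2 (rank 230). mRpL2, whose homolog lies near the peptidyl transferase centre, had 182 in replicate 1 (rank 1868) and 431 in replicate 2 (rank 416). Both stood higher in replicate 2. mRpL34 went the other way, with 205 in replicate 1 and 83.4 in replicate 2, as did mRpL11, whose homolog helps form the site where translation factors act, with 140 and 80.7. mRpL21 had 117 and 51.0, and mRpL35 had 82.4 and 56.6. The last pair missed the 6270 strongest of replicate 2, at ranks 9179 and 8218.

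mRpL53 was the least secure member of the 18. Its joint peak on 2R (13953909 to 13954288, joint rank 5119) overlapped no peak in the full list of replicate 1, and in replicate 2 it had signal 40.0 at rank 11831. GC content within 50 bp of its summit was 55.4%, the highest of the 18 and far from their mean of 29.9%. Without this peak, 17 members had a joint promoter summit.

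**Figure D1:**
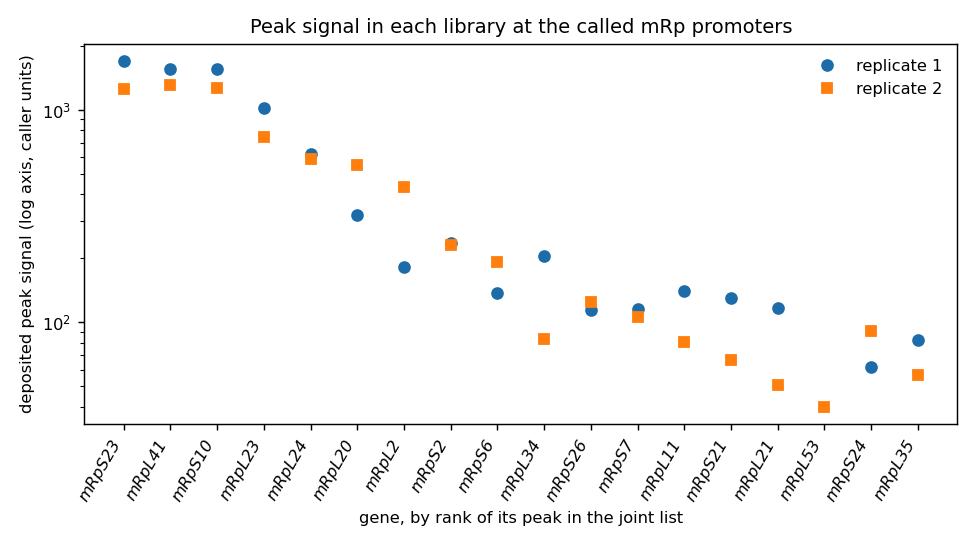
Deposited peak signal (log axis, caller units) in replicate 1 (circles) and replicate 2 (squares) at the 18 mRp genes with a joint promoter summit, ordered by joint rank. The 5 strongest, from mRpS23 to mRpL24, lie above 500 in both libraries, while mRpL20 and mRpL2 are higher in replicate 2, mRpL34 and mRpL21 are higher in replicate 1, and mRpL53 has a value in replicate 2 only.

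Library differences were expressed relative to the median of the 5993 joint peaks found in both. Over the 17 member peaks found in both, the centred log2 ratio of replicate 2 to replicate 1 had a median of -0.30 and an SD of 0.69, where the SD over all these joint peaks was 0.72. It was below 0 at 12 and above 0 at 5. The extremes were mRpL34 at -1.34 and mRpL2 at 1.20, and 13 of the 17 lay within 2-fold of the centre (76.5%), against 85.2% of all these joint peaks. The medians were -0.04 over joint promoter peaks and -1.09 over 65 peaks at cytoplasmic ribosomal protein genes. Differences between these medians were not tested. The SD at members was thus close to that of the joint list. The median offset between a library's summit and the joint summit was 8 bp, and the largest was 120 bp. The joint summit draws on both libraries, so these offsets do not measure how far apart the summits of the libraries lay.

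**Figure D2:**
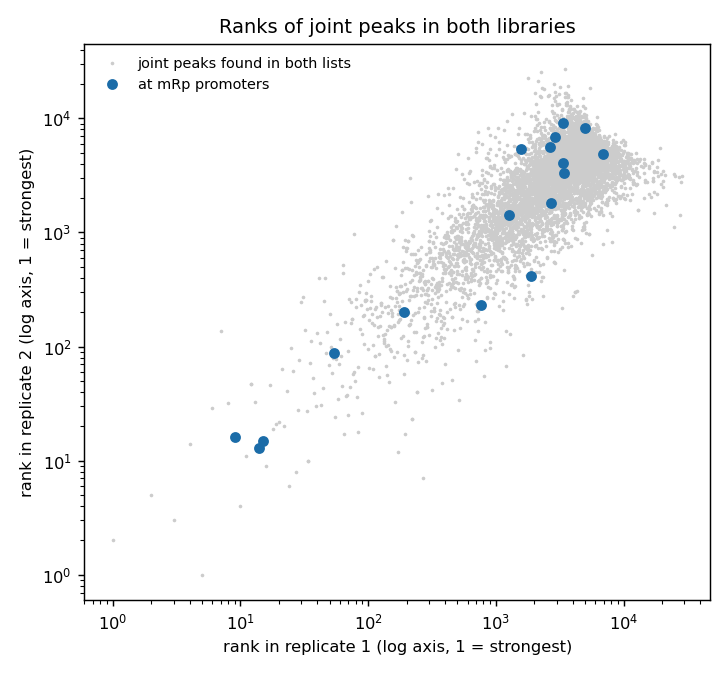
Rank in replicate 1 against rank in replicate 2 (log axes, 1 is the strongest peak) for the 5993 joint peaks found in both libraries (grey points), with the 17 such peaks at mRp promoters (blue points). mRpS23, mRpL41 and mRpS10 sit together at ranks 9 to 16, and the weaker members lie within the main cloud.

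Start sites shared with a neighbour were the most regular feature of the set. A gene was called head-to-head if a TSS of a coding gene on the other strand lay upstream of its own, pointing away, at most 1000 bp off. By this rule 58 of the 73 members were head-to-head (79.5%), against 36.2% of all protein-coding genes and 60.2% of 93 cytoplasmic ribosomal protein genes. The median spacing was 283 bp in members and 298 bp in all genes. This property comes from the annotation and not from the peaks.

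All 18 members with a joint promoter summit were head-to-head genes. Of the 58 head-to-head members, 31.0% had a summit (19.5 to 44.5%), beside 28.2% of all head-to-head genes. Of the 15 other members 0 had one, with an exact interval of up to 21.8% (20% by the floor of 3 counts that is used below for other counts of 0), beside 11.3% of all genes without such a partner. Among the strongest peaks of the libraries, head-to-head members were reached in 36.2% of cases in replicate 1, beside 30.1% of head-to-head genes, and in 27.6% in replicate 2, beside 27.2%. Within head-to-head genes the members' shares were therefore near the background. Spacing was alike in head-to-head members with a summit (median 288 bp) and without (283 bp). Members had fewer annotated TSS than other genes, with a mean of 1.10 against 1.41, and the median promoter window was 1001 bp in both.

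**Figure D3:**
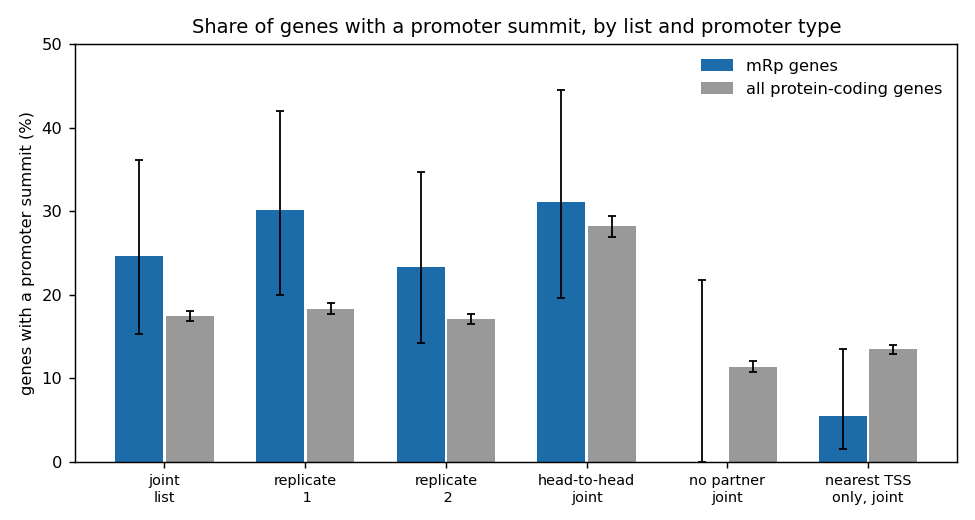
Percentage of genes with a promoter summit among mRp genes (blue) and all protein-coding genes (grey), for the joint list, each library, genes with and without a head-to-head partner, and with each summit counted only for the gene with the nearest TSS. Bars start at 0 and error bars are 95% exact binomial intervals. The mRp share is 24.7% against 17.4% in the joint list and 31.0% against 28.2% among head-to-head genes. By nearest TSS it is 5.48% against 13.5%, not matched for head-to-head genes.

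At 17 of the 18 the summit also lay within 500 bp of a TSS of the partner. Over all genes 8.35% had a joint summit shared in this way, and such genes made up 47.9% of those with a promoter summit, against 94.4% of the called members. At cytoplasmic ribosomal protein genes it was 30 of 69, or 43.5%. These shares depend on how many of the genes have a partner at all. Among head-to-head genes with a promoter summit, 17 of 18 members shared it, against 81.9% of all 1423 such genes and 65.2% of 46 such cytoplasmic ribosomal protein genes. The difference between these shares was not tested. The summit was nearer to a TSS of the partner at 14 of the 17 and nearer to the member at 3, mRpL23, mRpS6 and mRpL34. Over all genes with a shared summit, 50.2% had it nearer to the partner, close to an even split since most such pairs are counted from each side. The median distance was 116 bp from the partner's TSS and 187 bp from the member's. A gene with more annotated TSS has more chances to be nearer. Partners had more TSS than the member in 7 cases, of which 6 had the summit nearer to the partner, and the same number in 8, of which 7 did.

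The partners of the strongest members have varied functions. The mRpS23 summit lay 387 bp upstream of mRpS23 and 105 bp upstream of CenG1A, which encodes a GTPase-activating protein for Arf. The mRpS10 summit lay 142 bp from mRpS10 and 115 bp from Art3, an arginine methyltransferase gene. At mRpL24 the distances were 117 bp and, to betaggt-I, 101 bp. The latter encodes a subunit of the enzyme that attaches geranylgeranyl groups to proteins. At mRpL20 they were 261 bp and, to Icmt, 138 bp. Icmt encodes the methyltransferase that acts on prenylated proteins. At mRpL2 they were 318 bp and, to the nearest of 4 start sites of the forkhead factor gene FoxK, 118 bp. Another FoxK start lies 64 bp from that of mRpL2, so the summit falls inside the FoxK gene.

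The weaker shared summits lay at the following pairs. mRpS2 shared one with Mon1, a gene of endosome maturation, 41 bp from its TSS and 181 bp from that of mRpS2. mRpS6 was paired with Cip4, which encodes a membrane-bending protein, and was the nearer gene at 115 bp against 333 bp. mRpL34 and the dystroglycan gene Dg lay almost equally near, at 187 and 197 bp. mRpS7 was paired with the cell cycle kinase gene Cdk1 (212 and 188 bp) and mRpS26 with CG13698 (235 and 195 bp). mRpS21 was paired with the chaperone gene Droj2 (178 and 119 bp). mRpL21 was paired with rept, which encodes an AAA ATPase of chromatin complexes (200 and 79 bp). mRpS24 was paired with Apc2, a gene of Wnt signalling (243 and 178 bp). mRpL53 was paired with the Argonaute gene AGO1 (96 and 74 bp), and CG33155 has its start in the same window.

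At 2 pairs the partner also acts in mitochondria. mRpL35 shared its summit with Mitofilin, which encodes an organiser of the inner membrane (132 and 60 bp). mRpL11 shared its summit with HtrA2, a protease gene, at 198 bp upstream of mRpL11 and 72 bp downstream of the nearest HtrA2 start. At 15 of the 17 pairs the summit lay upstream of the nearest TSS of each gene, and the exceptions were mRpL11 and mRpL23. At mRpL23 the summit lay 66 bp downstream of the nearest of its 3 start sites and 116 bp upstream of CG9004. Over all genes with a shared summit, 78.7% had it upstream of both. In a peak list a summit between start sites cannot be assigned to 1 gene of the pair.

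mRpL41 was the exception among the 18. It has a head-to-head partner, CG8079, but at 762 bp, and the summit lay 138 bp upstream of mRpL41 and 624 bp from CG8079. The start of a non-coding RNA, lncRNA:CR44463, lay 440 bp from the summit. The joint peak with rank 11 was therefore in the window of mRpL41 and of no other coding gene.

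**Figure D4:**
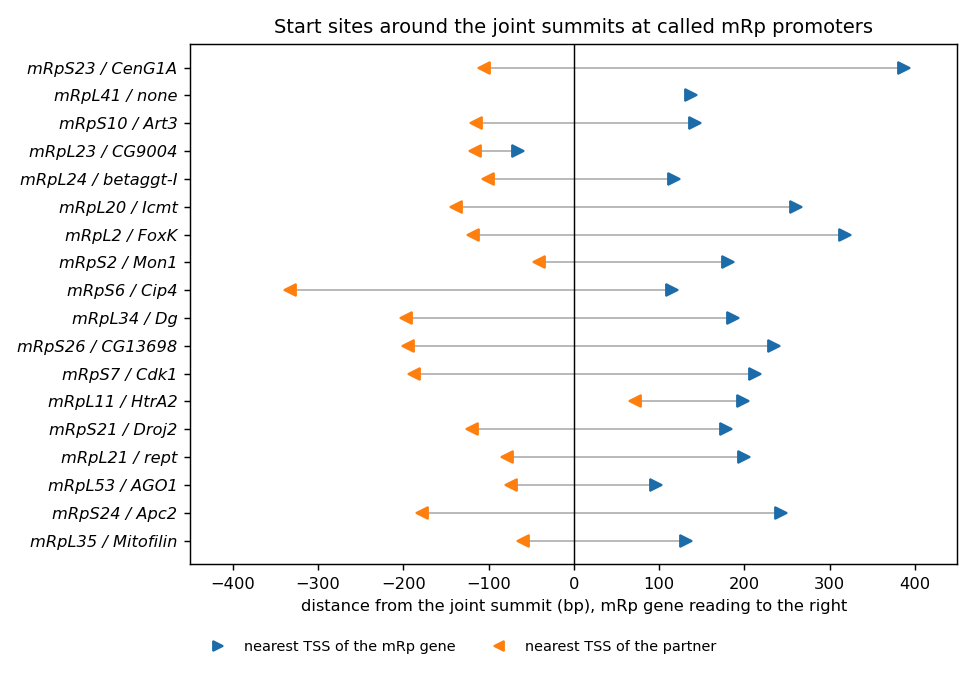
Distance in bp from the joint summit (0) to the nearest TSS of each mRp gene (blue, reading to the right) and of its head-to-head partner (orange), for the 18 genes with a joint promoter summit in order of joint rank. Summits lie between the arrows at 15 pairs, closer to the orange partner at 14 of 17, and mRpL41 has no partner within 500 bp.

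When each summit was counted only for the coding gene with the nearest TSS, 4 members were left: mRpL23, mRpL34, mRpL41 and mRpS6. This is 5.48% of the members (1.51 to 13.4%), against 13.5% of all genes. These shares are not matched for promoter type, since 79.5% of members but 36.2% of all genes are head-to-head. Shares by nearest TSS among head-to-head genes are not given here. Cytoplasmic ribosomal protein genes had 69 of 93 with or without this way of counting. Position differed likewise between these families. The median distance from TSS to summit was 184 bp in members, with a range of 66 to 387 bp, and 17 of 18 were upstream. None of the 18 lay within 50 bp, which by the floor of 3 counts allows up to 16.7%. Of 69 cytoplasmic ribosomal protein summits 56 lay that close, with a median of 20 bp. Over all genes with a promoter summit the median was 160 bp, and 13.2% lay within 50 bp. This share is below the limit of 16.7%, so the count of 0 does not set the members apart from all genes. No test was made of these differences.

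The limit of 500 bp left out a pair of members by a few bases. The joint summit nearest to mRpL33 lay 505 bp upstream, with signal 218, and that nearest to mRpS31 lay 509 bp upstream, with signal 410. No member summit lay as close on the inner side, where the farthest were mRpS23 at 387 bp and mRpL2 at 318 bp. Both mRpL33 and mRpS31 had a promoter summit among the 6270 strongest peaks of replicate 1, at ranks 4154 and 2373, and none in the full list of replicate 2.

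Distance to the nearest joint peak was taken over all 55 members without a joint promoter summit, mRpL33 and mRpS31 included. The same distances over all genes are not given here, so the values describe the members only. Over the 55, the nearest joint summit lay at a median of 7317 bp, within 2000 bp at 8 and over 10000 bp away at 21. None of the 55 had a joint summit within the gene. This was largely set in advance, since the 55 are defined by having no joint summit within 500 bp of a TSS. Member genes are also short, with a median length of 909 bp against 2166 bp over all genes. In the full lists of 30000 peaks, which reach down to weak peaks, 34 members had a promoter summit in replicate 1 (46.6%, background 40.7%) and 42 in replicate 2 (57.5%, interval 45.4 to 69.0%, background 42.9%). In the pooled list 37 had one (50.7%, background 41.4%). Among head-to-head genes the shares in the full lists were 56.9% of members beside 54.0% of all such genes in replicate 1, and 62.1% beside 58.6% in replicate 2. These shares were near the background. Over all 73 members, 27 had a promoter summit in both full lists (37.0%, against 30.1% of all genes) and 24 in neither (32.9% against 46.5%). A further 7 had one in replicate 1 only (9.59% against 10.6%) and 15 in replicate 2 only (20.5% against 12.7%). The 24 in neither are all among the 55 without a joint promoter summit.

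Several members reached the 6270 strongest peaks of 1 library only. These were 9 of 73 in replicate 1 (12.3%, against 5.38% of all genes) and 4 in replicate 2 (5.48%, against 4.12%). In replicate 1 these were mRpL33, mRpL37, mRpS16, mRpS17, mRpS31 and mRpS5, besides mRpS21, mRpL21 and mRpL35 described above. mRpS31 had the highest signal of those without a joint summit, 153. In replicate 2 they were mRpL19, mRpL44 and mRpS18B, besides mRpS24. Their signals were 89.9, 90.5 and 77.3. mRpL19 had no promoter summit in the full list of replicate 1. Of the 19 members with a summit in the pooled list but not in the joint list, mRpS22 came closest, at pooled rank 6323.

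Over all protein-coding genes, the background for the subunit and numbering classes, 17.4% had a joint promoter summit. By subunit, 10 of 47 large subunit genes (21.3%) and 8 of 26 small subunit genes (30.8%) had such a summit. Of the 42 members with numbers up to 36 in mRpL and 21 in mRpS, which mark homologs of bacterial proteins, 13 had one (31.0%). Of the 31 with higher numbers it was 5 (16.1%). The numbering gives this split only roughly, since a few proteins with high numbers, such as human MRPL47 and MRPS24, are now placed in bacterial families. By chromosome, members with a summit numbered 4 of 12 on 2L (33.3%, against 16.9% of all genes there) and 3 of 12 on 2R (25.0% against 16.0%). They numbered 6 of 17 on 3L (35.3% against 18.7%) and 5 of 21 on 3R (23.8% against 17.9%). On the X it was 0 of 11, which allows a share of up to 27.3%, where 18.0% of all X-linked genes had a summit. These subgroups were small and were not tested against each other. The share of head-to-head genes in each subgroup is not given here.

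Other genes of mitochondrial gene expression were set beside the members. Of 44 listed, 7 had a joint promoter summit (15.9%), near the background of all genes. The list of transcription and RNA factors had 5 of 17 (29.4%). Of these 17 genes 15 were head-to-head, and 28.2% of all head-to-head genes had a joint promoter summit. At 2 of the 5 the summit also lay in the window of the partner. The 5 included PNPase, which encodes an RNA-degrading enzyme (signal 2960, rank 7, summit 86 bp upstream, partner Gprk2). Another was SLIRP2, which encodes an RNA-binding protein (1541, rank 85, 113 bp upstream, partner Mkk4). SLIRP1 had signal 596, scu, a subunit of mitochondrial RNase P, had 399, and the tRNA-processing gene RNaseZ had 174. RNaseZ had no promoter summit among the 6270 strongest peaks of replicate 2. Of 16 genes listed as mitochondrial aminoacyl-tRNA synthetases or related to them, 1 had a summit, ArgRS-m (signal 189, and also none among those peaks of replicate 2). Of 9 translation factor genes 1 did, the initiation factor gene mIF2 (signal 322). The genes tko and bonsai encode proteins of the small mitochondrial subunit under other symbols, and 0 of these 2 had one. Polymerase and factor genes PolrMT, TFAM, mtTFB1 and mtTFB2 had none.

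Short sequences were counted within 50 bp of the summits, on both strands. The 18 member windows had a mean GC content of 29.9%, against 34.6% at the 2063 joint promoter summits and 43.2% at the TSS of all genes. The AT-rich words AAAATA and ATATTA lay in 10 and 6 member windows (55.6% and 33.3%), beside 38.3% and 18.9% of promoter summits and 20.9% and 6.75% of windows at TSS. The homeodomain core TAATTA lay in 2 (mRpL24 and mRpS7), 11.1% beside 9.02% and 2.77%. The core TAATTG lay in 4 (mRpL34, mRpS26, mRpS7 and mRpL35), 22.2% beside 9.26% and 5.44%. The words overlap in places, and at least 1 of them was present in 14 of 18 member windows (77.8%) and in 55.4% of promoter summits. With 18 windows, 1 window more or less moves a share by several percentage points, and the lower GC content of the member windows moves with these shares. Its part in them was not tested.

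Words of known promoter factors were rare in the member windows, as they were at promoter summits at large. The DREF word TATCGATA, the M1BP word GGTCACAC, the E-box CACGTG, the NRF1 word GCGCATGC and the words TTACATAA, TTACGTAA and TTATATAA, which together stand for an element described at nuclear genes of respiration in flies, lay in 0 of 18, which allows up to 16.7% for each. At promoter summits at large the shares were 1.60%, 1.21%, 0.921%, 0.0969% and 2.47%. At the TSS of all genes they were 5.13%, 5.31%, 1.97%, 0.337% and 0.832%. All of these shares lie below the limit of 16.7%, so the counts of 0 do not set the members apart. The ETS core CCGGAA lay in 1 window, at mRpS2, beside 3.39% of promoter summits and 2.94% of windows at TSS. A word in a window is a description and not a binding site.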

How the data were processed

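The data are narrowPeak lists for each replicate, for their pool and for the joint set. Per the deposited text descriptions, the authors called each list against the same control on dm6 and derived the joint list from the others. The sources used here do not name the caller. The signal value per peak was deposited by the authors with no stated scaling, and it served mainly for ranks and description within a list. Between libraries, values were set side by side and as a log2 ratio centred on the median of the joint peaks found in both. Whether the libraries share a scale is unknown. The authors also deposited a -log10 q-value per peak, which was used to count peaks with a q-value of at most 0.05. The joint peaks equal the 6270 strongest of the pooled list. Summit offsets are other values that the authors deposited.

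TSS of protein-coding transcripts came from Ensembl release 115 and sequence from RefSeq Release 6. All 74 annotated start codons of members read ATG in that sequence. Coordinates are 1-based. Where several summits lay in a window, the strongest was described. Replicate peaks were matched to joint peaks by an overlap of at least 1 bp. Genes were named by a rule: members with a joint promoter summit and their partners, those in 1 library only, and those nearest to the limit. The mitochondrial gene lists and words were set with that rule. The members and lists were chosen with earlier results of these data known. No set test was used. The counting rule was tested on simulated data. Python 3.11.15, pandas 2.3.3, scipy 1.17.1 and matplotlib 3.10.9 were used.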

Additional observations from a re-analysis of the deposited data

How the results depend on the processing

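The count of members with a joint promoter summit depended most on how a summit was tied to a gene. Member counts below are out of 73, and backgrounds are percentages of all protein-coding genes. The count was 15 with a window of 250 bp (background 13.4%), 20 with 1000 bp (21%) and 18 with only the outermost TSS (14.9%). It fell to 10 in the 3135 strongest joint peaks (9.80%), to 8 where the peak had to overlap a TSS (9.03%), and to 4 by nearest TSS (13.5%). It was 17 with joint peaks found in both full lists (15.9%), an alternative chosen after seeing the data. From a single library it was 22 in replicate 1 (18.3%) and 17 in replicate 2 (17.1%). The full lists, which hold more peaks, gave 34 in replicate 1 (46.6%, background 40.7%) and 42 in replicate 2 (57.5%, background 42.9%). A q-value of at most 0.05 also kept more peaks. It gave 28 in replicate 1 (38.4%, background 24.3%) and 35 in replicate 2 (47.9%, background 36.1%). The shares of head-to-head genes at this q-value are not given here. With windows of 250 and 1000 bp, replicate 1 gave 17 and 22 (background 14.3% and 21.7%). Replicate 2 gave 13 and 20 (background 12.9% and 20.7%). Shared summits numbered 17 with head-to-head spacing of up to 500 bp (background 7.62%) or 2000 bp (8.35%). From a single library they numbered 20 in replicate 1 (9.06%) and 15 in replicate 2 (8.06%). The median rank of member peaks (2466 in the joint list) was 1827 to 2678, and the median distance 140 to 184 bp, from a single library; the cause was not tested. The median centred ratio was -0.23 with summits matched within 100 bp and -0.26 when centred on promoter peaks. In windows of 100 bp on either side none of the 10 sequence shares left its interval, but intervals from 18 windows are wide. The backgrounds rose as well. AAAATA lay in 66.7% of member windows beside 59.0% of promoter summits, and ATATTA in 50% beside 32.0%. TAATTA lay in 22.2% beside 16.5%, and TAATTG in 33.3% beside 17.5%. The 44 other mitochondrial genes had 7 to 8 under all settings run. No paired analysis was possible because there is 1 group. Depth is unknown, so weak peaks such as that of mRpL53 have no stated precision.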
